A study of Homo sapiens with 28 samples.

Results

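A set of 10 genes of the Notch pathway were followed through 24 RNA-seq libraries of human colorectal cancer (CRC) cell lines in which TWIST1, a basic helix-loop-helix (bHLH) transcription factor of the mesenchymal state, was targeted. They were the receptors NOTCH1, NOTCH2 and NOTCH3, the ligands JAG1, JAG2, DLL1 and DLL4, the target genes HES1 and HEY1, and ATOH1. The genes were chosen by name, with earlier results of these data known. Each was matched to a GENCODE identifier in both count tables, and they make up 10 of the 62703 genes counted. MDST8, a mesenchymal line of the CMS4 subtype, was sequenced as wild-type (WT) cells and as 5 TWIST1 knockout (KO) clones, named 1.1, 2.2, 3.2, 3.5 and 3.6. Each clone grew from a single cell after electroporation of Cas9 with 1 of 3 guides, and clones 3.2, 3.5 and 3.6 carry the same guide number, so a clone is 1 isolate of its genotype. LoVo, a line outside CMS4, gave libraries labelled TWIST1 shRNA, from lentiviral knockdown, and libraries labelled shRNA control. The authors describe their LoVo comparison as knockdown against wild-type cells, so whether the control cells carried an shRNA is not known. All cells were cultured in DMEM with serum. Each of the 8 groups has 3 libraries, of poly(A) RNA. Nothing says that these came from separate cultures, so p-values measure only the spread between libraries, which may be technical.

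Notch signalling passes between touching cells. A Jagged or Delta-like ligand on one cell binds a Notch receptor on its neighbour, the receptor is cut by ADAM proteases and then by γ-secretase, and the freed intracellular domain enters the nucleus, where it joins RBPJ and Mastermind coactivators and switches on target genes. HES1 and HEY1 encode bHLH repressors of that kind. In the intestinal crypt HES1 keeps ATOH1 silent, and ATOH1 is the bHLH activator that commits cells to the goblet, Paneth and enteroendocrine lineages. DLL1 and DLL4 are the crypt ligands, JAG1 is often raised in CRC, and NOTCH1 and NOTCH2 are the main crypt receptors.

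Library totals ran from 17252883 to 22217009 counts in MDST8 and from 16567606 to 20889529 in LoVo. TWIST1 mRNA went against the LoVo labels, with 0 counts in each library labelled shRNA control and 73 to 93 in each labelled TWIST1 shRNA, at least 84.9-fold higher if the control group as a whole is given 3 counts, the floor used here. Every LoVo direction below follows the labels. In MDST8, TWIST1 mRNA averaged 45.4 CPM (counts scaled to library size) in WT and 29.1 to 52.9 CPM in the clones. An edited gene can keep its mRNA, so these values do not check the knockout. As for the labelled tissue, LoVo expressed 10 of 10 colon epithelium markers above 1 CPM. MDST8 expressed only KRT8 and KRT18 of them, with CDH1, CDX1, CDX2 and LGALS4 at 0 counts in WT, and all 6 mesenchymal markers.

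Promoter entries in RefSeq (GRCh38.p14) were found for 8 of the 10 members, all but DLL1 and HEY1. Of these, 4 are shown as the 250 bases before the start site, 5′ to 3′ on the gene's strand. JAG1, DLL4 and HES1 are the ligands and the target with changes in both lines, and ATOH1 is the silent gene at the end of the pathway. Capitals mark 2 motifs read on both strands, the E-box CANNTG, which bHLH factors such as TWIST1 bind, and TGGGAA, the core of the RBPJ site. Neither motif overlaps the other in these windows.
HES1, chr3:194135898-194136147, plus strand: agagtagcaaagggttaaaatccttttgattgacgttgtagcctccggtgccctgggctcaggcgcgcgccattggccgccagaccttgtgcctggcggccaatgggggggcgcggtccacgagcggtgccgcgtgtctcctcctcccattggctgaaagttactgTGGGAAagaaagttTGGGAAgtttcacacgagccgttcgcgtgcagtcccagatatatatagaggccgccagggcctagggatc
JAG1, chr20:10674000-10674249, minus strand: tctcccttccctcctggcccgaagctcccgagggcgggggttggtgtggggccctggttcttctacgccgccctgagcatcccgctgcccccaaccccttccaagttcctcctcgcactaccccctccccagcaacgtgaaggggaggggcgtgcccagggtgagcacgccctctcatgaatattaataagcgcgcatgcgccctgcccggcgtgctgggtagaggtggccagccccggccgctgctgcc
DLL4, chr15:40929090-40929339, plus strand: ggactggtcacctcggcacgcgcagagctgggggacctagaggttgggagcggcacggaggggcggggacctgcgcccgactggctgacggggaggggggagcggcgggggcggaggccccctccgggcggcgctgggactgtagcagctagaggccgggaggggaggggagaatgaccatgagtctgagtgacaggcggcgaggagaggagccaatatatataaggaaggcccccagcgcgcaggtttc
ATOH1, chr4:93828503-93828752, plus strand: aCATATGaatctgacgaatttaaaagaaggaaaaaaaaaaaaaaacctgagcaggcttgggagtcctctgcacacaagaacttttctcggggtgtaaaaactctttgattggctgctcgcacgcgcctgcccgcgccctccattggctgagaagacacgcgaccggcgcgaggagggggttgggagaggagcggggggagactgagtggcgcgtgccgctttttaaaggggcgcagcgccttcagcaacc

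HES1 held 2 RBPJ cores, which begin 84 and 70 bases before its start, and no E-box. It was the only one of the 8 promoters with an RBPJ core, a motif found in 20.8% of 35116 RefSeq promoters of this length. ATOH1 held 1 E-box with the letters CATATG, 249 bases before its start. JAG1 and DLL4 held neither motif. Of the 4 promoters not shown, JAG2 held 2 E-boxes and NOTCH1, NOTCH2 and NOTCH3 held none, whereas 61.8% of all promoters held at least 1. For NOTCH2 the RefSeq start lies 31117 bp from the GENCODE start used for the peaks. A match describes letters in a window, and its absence says nothing about binding elsewhere.

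Of the members, NOTCH3 and JAG2 were abundant in LoVo alone, and NOTCH1, NOTCH2, JAG1, DLL1 and HES1 were read well in both lines. Levels of different genes were compared as FPKM, which also divides by exon length. In WT MDST8 the order was NOTCH2 at 10.1 ± 0.374 FPKM (SD, n = 3), NOTCH1 at 6.57 ± 0.489, JAG1 at 6.43 ± 0.152, HES1 at 5.53 ± 0.39 and DLL1 at 3.85 ± 0.132 FPKM. HEY1 followed at 0.663 FPKM and DLL4 at 0.135 FPKM. JAG2 and NOTCH3 lay below 0.1 FPKM in WT, at 0.0934 and 0.0250. NOTCH2 led this order, and NOTCH1 and JAG1 lay within the spread of each other. In LoVo libraries labelled shRNA control the target HES1 and the ligand JAG1 came first, at 46.3 and 41.8 FPKM. JAG2 was at 13.8 FPKM there, NOTCH2 and NOTCH1 both at 10.8, NOTCH3 at 5.04, DLL1 at 2.76, DLL4 at 1.21 and HEY1 at 0.161 FPKM. ATOH1 was listed at 0 counts in 17 of the 18 MDST8 libraries and at 1 count in the other, in clone 3.5, and LoVo libraries held 0 to 3 counts, so ATOH1 fell under the filter on low counts in every comparison and was given no test. For 3 counts over the WT group the limit was 0.0509 CPM.

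**Figure D1:**
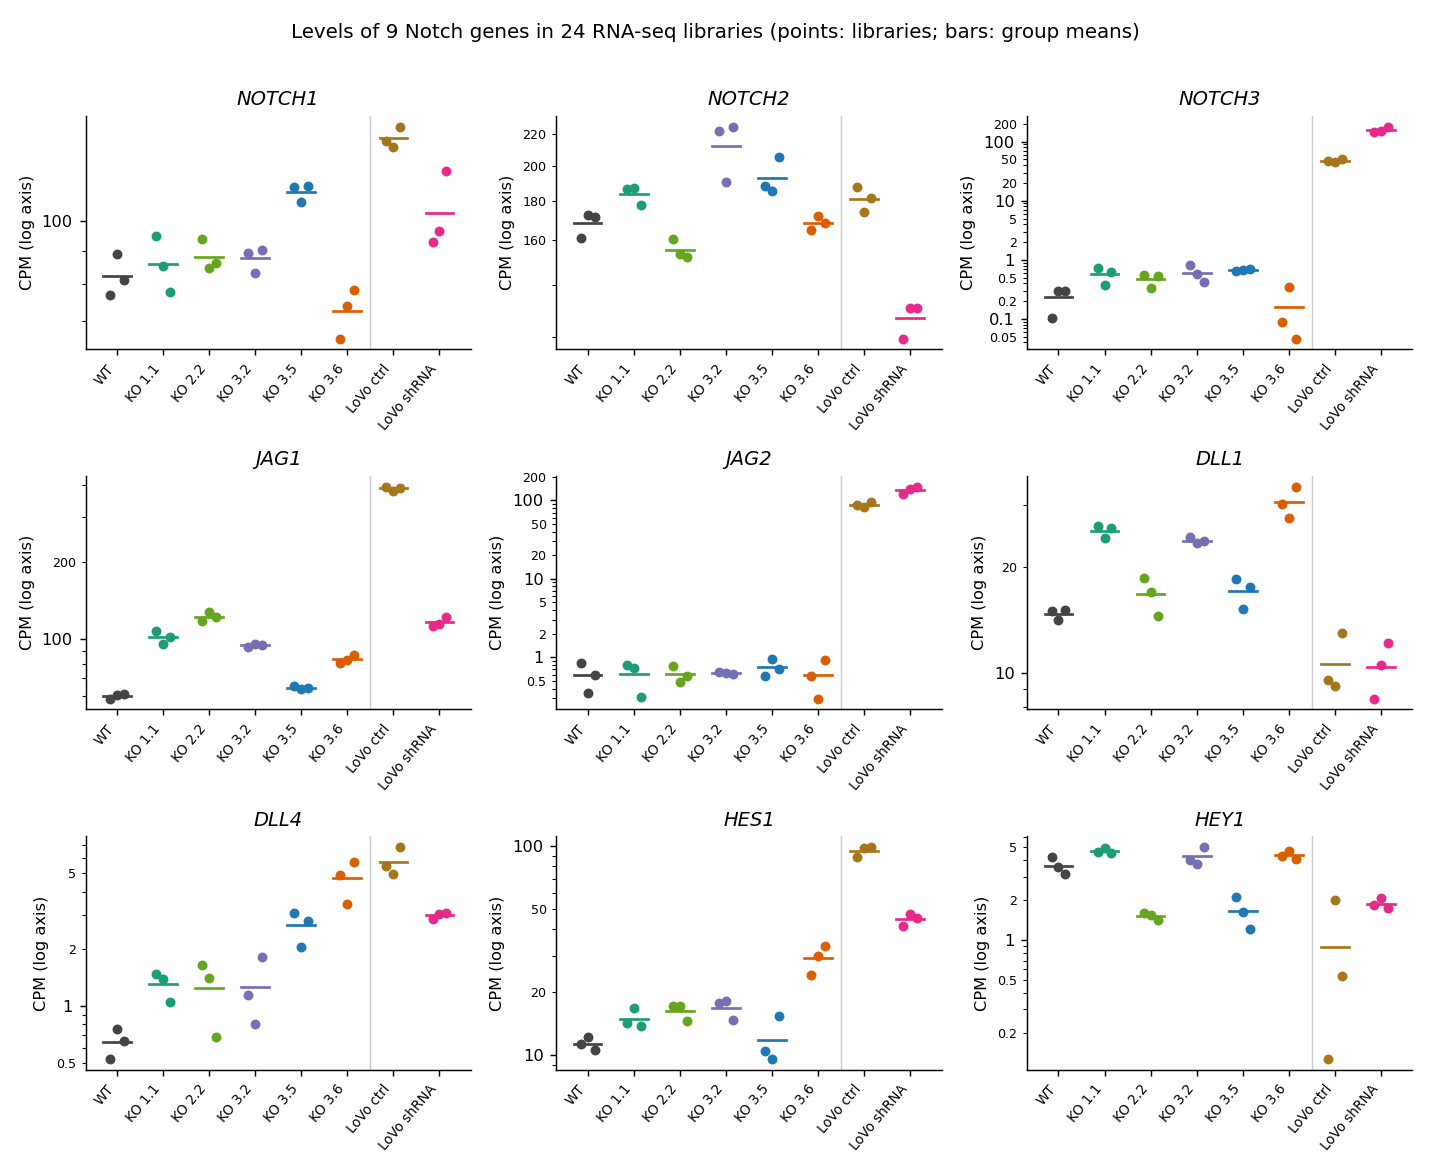
Level of 9 Notch members in each of the 24 libraries, in TMM-normalized CPM, with a log axis of its own for each gene. Points are libraries and bars are group means (n = 3). NOTCH3 and JAG2 stay below 1 CPM in every MDST8 library and reach at least 44.5 CPM in every LoVo library, whereas NOTCH1 stays between 65.7 and 140.3 CPM and NOTCH2 between 119.2 and 224.6 CPM over all groups.

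The first comparison asked what each TWIST1 KO clone changed relative to WT. DLL4 was called higher in all 5 clones, firmly in clones 3.5 and 3.6, JAG1 and DLL1 were called higher in 3 each, while the receptors NOTCH1 and NOTCH2 stayed within a log2 fold change of 0.42 of WT in every clone. HES1 passed both thresholds in clone 3.6 alone, and HEY1 fell in clones 2.2 and 3.5. A gene was called at an adjusted p below 0.05 and an absolute log2 fold change above 0.58, by the quasi-likelihood test of edgeR, adjusted over 13706 genes by the Benjamini-Hochberg method. NOTCH3, JAG2 and ATOH1 fell under the filter on low counts, which left 7 of the 10 members tested. Of these 7, 3 were called in clone 1.1, where 19.5% of all genes were called, 3 in clone 2.2 (14.7%), 3 in clone 3.2 (17%), 2 in clone 3.5 (18.5%) and 3 in clone 3.6 (27%). The median log2 fold change of the 7 members was 0.40, 0.17, 0.56, 0.19 and 0.48 in the same order, beside medians of all tested genes between -0.01 and 0.00. The 5 comparisons share the 3 WT libraries, and in these bulk samples fewer expressing cells and less RNA per cell cannot be told apart.

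JAG1, a transmembrane Jagged ligand (chr20:10637684-10673999, minus strand, hg38), separated the clones most sharply. WT libraries held 58.2, 60.2 and 60.9 CPM. Clone 2.2 held 117.9, 127.5 and 121.2 CPM, clone 1.1 held 107.7, 95.7 and 101.5, and clone 3.2 held 92.9, 95.6 and 94.8. Clone 3.6 held 80.8, 82.9 and 86.8 CPM, and clone 3.5 held 65.3, 63.8 and 64.3. All 15 KO libraries lay above all 3 WT libraries, and neighbouring clones in this order did not overlap each other either. How many other genes separate the clones in this way was not computed. Of all tested genes 32.5%, 30.9%, 31.5%, 33% and 35.4% had all 3 libraries of clones 1.1, 2.2, 3.2, 3.5 and 3.6 above WT. The log2 fold change was 1.02 (SE 0.0443, adjusted p = 7.89e-20, edgeR quasi-likelihood test) in clone 2.2, 0.76 (SE 0.0448, adjusted p = 1.77e-16) in clone 1.1 and 0.65 (SE 0.045, adjusted p = 1.23e-14) in clone 3.2. Clone 3.6 reached 0.48 (SE 0.0453, adjusted p = 1.89e-11), under the fold threshold, although limma on log2(count + 1) called it (0.605), and clone 3.5 reached 0.10 (adjusted p = 0.07). The 3 clones of guide number 3 therefore spanned values from 0.10 to 0.65. Of the exon bases of JAG1, 3.29% overlap an antisense lncRNA, and counting did not use the strand.

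DLL1, a Delta-like ligand (chr6:170282206-170306565, minus strand), was at 14.96, 14.13 and 15.04 CPM in WT. Clone 3.6 held the most, with 30.0, 27.6 and 33.7 CPM. Clones 1.1 and 3.2 came next, with 26.1, 24.1 and 25.7 CPM and with 24.3, 23.3 and 23.6 CPM. Every library of these 3 clones lay above every WT library. Clones 2.2 and 3.5 lay close to WT, with 14.4 to 18.6 and 15.2 to 18.5 CPM, and clone 2.2 overlapped it. The log2 fold change was 1.05 in clone 3.6 (SE 0.0838, adjusted p = 3.04e-13, edgeR quasi-likelihood test), 0.77 in clone 1.1 (SE 0.0862, adjusted p = 1.35e-09) and 0.68 in clone 3.2 (SE 0.0865, adjusted p = 2.42e-08). It was 0.17 in clone 2.2 and 0.20 in clone 3.5 (adjusted p = 0.0554). DLL1 shares 9.69% of its exon bases with FAM120B on the opposite strand.

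DLL4, the other Delta-like ligand (chr15:40929340-40939073, plus strand), was the least abundant tested member in WT, at 0.525, 0.752 and 0.652 CPM, or 10 to 15 counts. Clone 3.6 held 4.90, 3.45 and 5.72 CPM and clone 3.5 held 3.09, 2.05 and 2.81. In both clones the lowest library was above the highest WT library. Clone 1.1 held 1.47, 1.39 and 1.05 CPM, clone 3.2 held 1.14, 0.801 and 1.80, and clone 2.2 held 1.64, 1.40 and 0.683, so that 1 library of clone 2.2 lay within the WT range. The fold change was 7.22 in clone 3.6 (log2 2.85, SE 0.298, adjusted p = 2.03e-10, edgeR quasi-likelihood test) and 4.04 in clone 3.5 (log2 2.02, SE 0.324, adjusted p = 1.97e-06). Both calls held under all alternatives tried. In clones 1.1, 2.2 and 3.2 the log2 fold change was 1.01 (adjusted p = 0.0152), 0.94 (adjusted p = 0.0283) and 0.94 (adjusted p = 0.0243), and these 3 calls were fragile. Without WT replicate A all 3 were lost, with adjusted p of 0.0553, 0.0893 and 0.0785. The call was also lost without clone 1.1 replicate A (0.0502), without WT replicate C (0.0534) or clone 2.2 replicate A (0.159) or B (0.0898), and without clone 3.2 replicate C (0.236).

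The receptors moved little. NOTCH1 (chr9:136494433-136546048, minus strand) was at 76.8, 88.9 and 81.2 CPM in WT and at 113.0, 107.1 and 113.6 CPM in clone 3.5, where all 3 libraries lay above WT (log2 fold change 0.42, adjusted p = 2.66e-07). In clone 3.6 it was at 65.7, 73.9 and 78.2 CPM (log2 fold change -0.19, adjusted p = 0.00904), with ranges that overlap. NOTCH2 (chr1:119911553-120100779, minus strand) was at 161.3, 172.6 and 171.7 CPM in WT and at 221.9, 190.4 and 224.6 CPM in clone 3.2 (log2 fold change 0.33, adjusted p = 2.95e-07). None of the 10 receptor comparisons reached the fold threshold. NOTCH2 has near-identical partial copies, NOTCH2NLA, NOTCH2NLB and NOTCH2NLC, between which reads may be lost or split. None of the 3 copies was called in any clone, and their log2 fold changes ran from 0.03 to 0.46. NOTCH3 (chr19:15159038-15200995, minus strand) held 1 to 15 counts per MDST8 library and JAG2 (chr14:105140982-105168824, minus strand) held 6 to 20, too few for the main filter. With no filter on low counts, the log2 fold change of NOTCH3 was 1.46 in clone 3.5 (adjusted p = 0.0274) and was not called in the other 4 clones (adjusted p from 0.0562 to 0.58), and with the edgeR function filterByExpr it was called higher in clones 1.1, 3.2 and 3.5.

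The targets did not move together. HES1 (chr3:194136148-194138732, plus strand) was at 11.3, 12.2 and 10.6 CPM in WT. In clone 3.6 it was at 24.3, 29.9 and 33.2 CPM, above every other MDST8 library. The fold change there was 2.56 (log2 1.35, SE 0.121, adjusted p = 4.85e-12, edgeR quasi-likelihood test). In clone 1.1 it was at 14.3, 16.9 and 13.8 CPM, in clone 2.2 at 17.3, 17.2 and 14.6, and in clone 3.2 at 17.7, 18.2 and 14.7. These 9 libraries also lay above WT, but their log2 fold changes of 0.40, 0.51 and 0.56 were under the fold threshold (adjusted p = 0.00896, 0.00108 and 0.000324). The value in clone 3.2 was close enough to the threshold that leaving out WT replicate B (0.63) or clone 3.2 replicate C (0.65) made it a call. Limma on log2(count + 1) (0.628) and edgeR with upper-quartile factors (0.586) also called HES1 in clone 3.2. Leaving out clone 2.2 replicate C made it a call in clone 2.2 (0.59). In clone 3.5 HES1 was at 10.5, 9.62 and 15.4 CPM, on both sides of the WT range.

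HEY1 (chr8:79762371-79767857, minus strand), the second bHLH repressor, went the other way in some clones. It was at 4.20, 3.56 and 3.16 CPM in WT, at 1.59, 1.55 and 1.42 CPM in clone 2.2 and at 2.1, 1.63 and 1.204 CPM in clone 3.5. All 6 libraries of these clones lay below WT. Of all tested genes 33.3%, 30.3%, 32.9%, 31.5% and 35.2% had all 3 libraries of clones 1.1, 2.2, 3.2, 3.5 and 3.6 lower. The log2 fold change was -1.27 in clone 2.2 (SE 0.208, adjusted p = 3.4e-06, edgeR quasi-likelihood test) and -1.17 in clone 3.5 (SE 0.208, adjusted p = 1.03e-05). In clones 1.1, 3.2 and 3.6 HEY1 was at 3.74 to 5.03 CPM, with log2 fold changes of 0.36, 0.23 and 0.26 that were not called. Clones 2.2 and 3.5, with low HEY1, were also those in which DLL1 was not called.

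**Figure D2:**
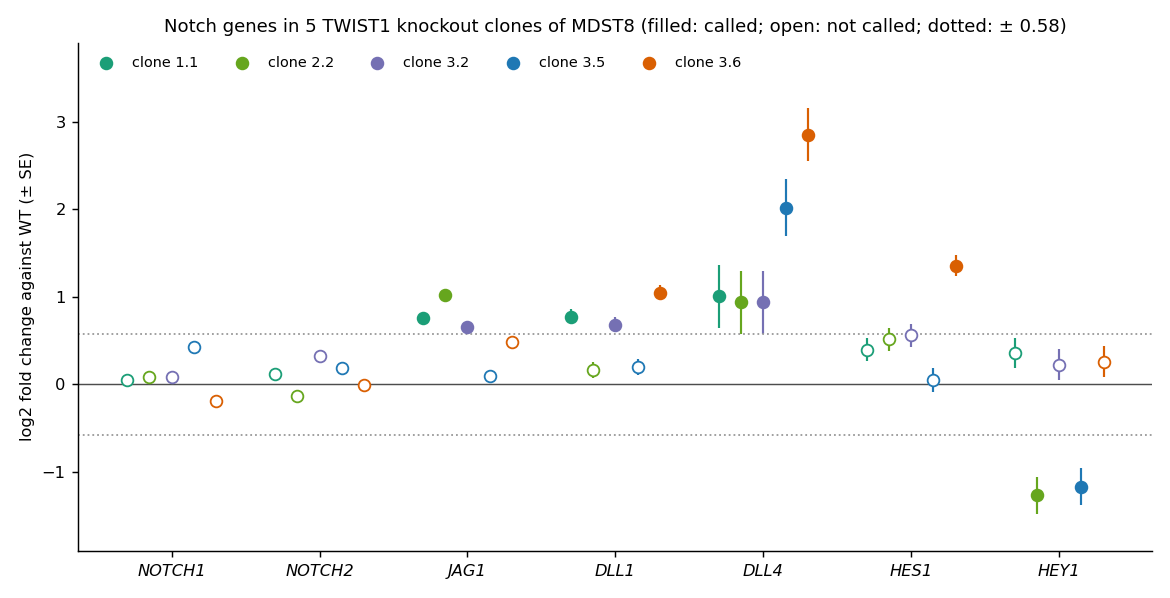
Log2 fold change of the 7 tested members in each KO clone against WT, with the standard error as a line. Filled points are calls, and dotted lines mark 0.58 in either direction. DLL4 reaches 2.85 in clone 3.6 and 2.02 in clone 3.5, JAG1 runs from 0.10 to 1.02, and HEY1 is at -1.27 and -1.17 in clones 2.2 and 3.5 and above 0 in the other 3 clones.

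An F test asked whether the 5 clones differed from each other. All 7 tested members differed at an adjusted p below 0.05, as did 81% of all tested genes, a background close to every gene. The adjusted p was 6.21e-18 for JAG1, 8.45e-12 for DLL1, 8.35e-09 for DLL4, 7.91e-11 for HES1, 2.66e-10 for HEY1, 3.36e-09 for NOTCH1 and 1.86e-09 for NOTCH2 (edgeR quasi-likelihood F test). The members called were JAG1, DLL1 and DLL4 in clones 1.1 and 3.2, DLL1, DLL4 and HES1 in clone 3.6, JAG1, DLL4 and HEY1 in clone 2.2, and DLL4 and HEY1 in clone 3.5. Summed levels of the 6 mesenchymal markers varied among the groups too, from 8810 to 9490 CPM in WT and 9012 to 9874 in clone 3.6 to 15130 to 16100 in clone 3.5. The 6 fibroblast markers summed to 615.6 to 627.3 CPM in WT, 1145 to 1306 in clone 1.1, 583.7 to 622.9 in clone 2.2, 789.7 to 858.5 in clone 3.2, 822 to 892.5 in clone 3.5 and 311.9 to 339 in clone 3.6. Only 3 or 4 of the 6 had a mean above 1 CPM in each of these groups. COL1A2 and COL3A1, which had counts in WT, were at 0 counts in clone 3.5, and COL3A1 in clone 3.6. The fibroblast sum therefore does not describe its list as a whole. The 10 colon epithelium markers summed to 69.69 to 75.09 CPM in WT, 114.6 to 121.7 in clone 2.2 and 128.3 to 134.1 in clone 3.5, with the other 3 clones between 63.52 and 83.07 CPM. Only 2 of the 10 had a mean above 1 CPM in WT, clone 2.2 or clone 3.5, so this sum does not describe the list as a whole. At 0 counts were 4 of them in WT, 6 in clone 2.2 and 2 in clone 3.5. The part of all these markers in the differences among clones was not tested.

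Across the 18 MDST8 libraries, Pearson correlations of log2 CPM described which members varied alike. These points form 6 groups of 3 libraries and share the WT group, so the values are descriptions. DLL1 varied with HES1 (r = 0.763), with HEY1 (0.629) and with DLL4 (0.608), and DLL4 varied with HES1 (0.605). NOTCH1 ran against HEY1 (-0.599). Over all tested genes, DLL1 was most like KCNAB1 (0.966), PDPN (0.962) and GFI1 (0.961), JAG1 was most like ITGB1 (0.958), POU3F2 (0.935) and SKIL (0.931), and DLL4 was most like EPHA4 (0.927) and TTC9 (0.909). HES1 was nearest to PHF10 (0.934), CHST14 (0.928) and TAPBPL (0.911), and HEY1 to NFKB1 (0.957), TIFA (0.956) and TMEM184C (0.952). The receptor NOTCH1 was nearest to FLNC (0.93), and NOTCH2 to PCDHGA10 (0.944).

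A further 94 genes of the pathway, in lists chosen by role, were read in the same fits, and 59 of them were tested in MDST8. In clones 1.1, 2.2, 3.2, 3.5 and 3.6, 10, 6, 6, 9 and 13 of the 59 were called higher and 2, 3, 4, 0 and 4 lower, beside 12%, 8.05%, 10.9%, 11.2% and 15.3% higher and 7.49%, 6.64%, 6.09%, 7.25% and 11.7% lower among all genes. Median log2 fold changes were 0.20, 0.09, 0.17, 0.14 and 0.18. Among the 9 genes of receptor cleavage, which include ADAM10, ADAM17 and the γ-secretase subunits, the single call over the 5 clones was APH1B in clone 3.6 (0.64). Of 14 genes of trafficking and turnover 3, 1, 1, 4 and 3 rose in the order of the clones, and of 13 other targets 3, 1, 2, 2 and 4 rose, with 3 lower in clone 3.6. RBPJ, the DNA-binding partner of the Notch intracellular domain, was at 0.26 in clone 3.6 and not called. The largest changes lay in single genes at the ends of the pathway. GFI1, a repressor that acts downstream of ATOH1 in secretory cells, rose from 1.39 CPM in WT to 11.4 in clone 1.1, 2.78 in clone 2.2, 8.70 in clone 3.2, 3.06 in clone 3.5 and 14.4 in clone 3.6 (log2 fold changes of 3.03, 0.99, 2.63, 1.13 and 3.36, adjusted p from 2.08e-20 to 4.24e-05). DTX1, a ubiquitin ligase that regulates Notch, rose from 11.6 CPM in WT to between 24.6 CPM in clone 2.2 and 30.3 in clone 3.6 (log2 fold changes of 1.07 to 1.38). CA2, a carbonic anhydrase of absorptive colonocytes, rose from 0.918 CPM in WT to between 2.69 CPM in clone 3.5 and 8.82 in clone 3.6 (log2 fold changes of 1.54 to 3.26). ID1 and ID3, inhibitors of bHLH factors, fell in clone 3.6, from 34.03 to 4.36 CPM and from 28.3 to 3.42 CPM. The secretory list held 16 genes, of which 2 were tested, and the absorptive list 10, of which CA2 was the only one tested, so neither list was measured as a programme in MDST8. KLF4, a goblet cell factor and the other tested secretory gene, fell in clones 2.2 (-1.54) and 3.2 (-1.02). HES7, a HES1 relative, rose in clones 1.1 (0.96), 3.5 (0.89) and 3.6 (0.63), the ubiquitin ligase DTX4 rose in clones 3.5 (1.05) and 3.6 (1.098), and NEURL1B, which promotes ligand endocytosis, fell in clone 2.2 (-1.21).

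In LoVo the second comparison set libraries labelled TWIST1 shRNA against those labelled shRNA control. JAG1, DLL4 and HES1 were lower and NOTCH3 and JAG2 higher in the libraries labelled TWIST1 shRNA, whereas DLL1 did not differ detectably. Of the 9 tested members 5 were called, where 52.7% of all 14270 genes were called, 26.6% higher and 26.1% lower. The median log2 fold change of the members was -0.37, beside 0.01 for all genes.

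JAG1 was at 393.5, 380.3 and 390.6 CPM in the libraries labelled control and at 111.8, 114.4 and 121.5 CPM in those labelled TWIST1 shRNA. The groups lay far apart. Of all tested genes 40.5% had all 3 libraries labelled TWIST1 shRNA below the others. Its fold change was 0.302 (log2 -1.73, SE 0.0578, adjusted p = 7.32e-14, edgeR quasi-likelihood test). HES1 was at 88.6, 98.1 and 99.2 CPM against 41.7, 47.4 and 45.4 (log2 -1.07, SE 0.0697, adjusted p = 4.13e-10). DLL4 was at 5.45, 4.93 and 6.87 CPM against 2.88, 3.04 and 3.07 (log2 -0.92, SE 0.206, adjusted p = 0.000667). These 3 members were lower in all 3 libraries labelled TWIST1 shRNA.

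NOTCH3, a receptor best known from vascular smooth muscle, was at 47.8, 44.5 and 50 CPM in the libraries labelled control and at 143.9, 153.6 and 179.2 CPM in those labelled TWIST1 shRNA. Its fold change was 3.39 (log2 1.76, SE 0.0806, adjusted p = 4.43e-12, edgeR quasi-likelihood test). JAG2, the second Jagged ligand, was at 88.1, 81.4 and 94.4 CPM against 122.4, 141.8 and 148.9 (log2 0.66, SE 0.0766, adjusted p = 6.14e-07). For both genes the 2 groups did not overlap, and 39.2% of all genes had all 3 libraries labelled TWIST1 shRNA higher. JAG1 and JAG2 thus went in opposite directions. NOTCH2 was at 187.5, 174.2 and 181.6 CPM against 119.2, 130.8 and 130.8 (log2 -0.50, adjusted p = 1.19e-06) and NOTCH1 at 133.5, 130.5 and 140.3 CPM against 93.0, 96.5 and 119.9 (log2 -0.37, adjusted p = 0.000538), both under the fold threshold. All 3 copies NOTCH2NLA, NOTCH2NLB and NOTCH2NLC were higher in the libraries labelled TWIST1 shRNA (log2 2.62, 1.41 and 1.75), on 6 to 28 counts against 33 to 78, beside 2152 to 3324 counts of NOTCH2 per library.

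DLL1 was at 9.5, 9.17 and 12.97 CPM against 8.42, 10.5 and 12.1 (log2 -0.01, adjusted p = 0.948), with ranges that overlap almost fully. HEY1 counts were uneven in the libraries labelled control, with 2, 38 and 9 counts or 0.127, 1.99 and 0.533 CPM, against 1.85, 2.07 and 1.74 CPM. Its log2 fold change of 1.04 was not called (SE 0.507, adjusted p = 0.0717). Without control replicate B, the library with 38 counts, it was 2.48 (adjusted p = 0.000438), and without replicate 1 of the libraries labelled TWIST1 shRNA it was 1.08 (adjusted p = 0.0342), so HEY1 in LoVo rests on single libraries.

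**Figure D3:**
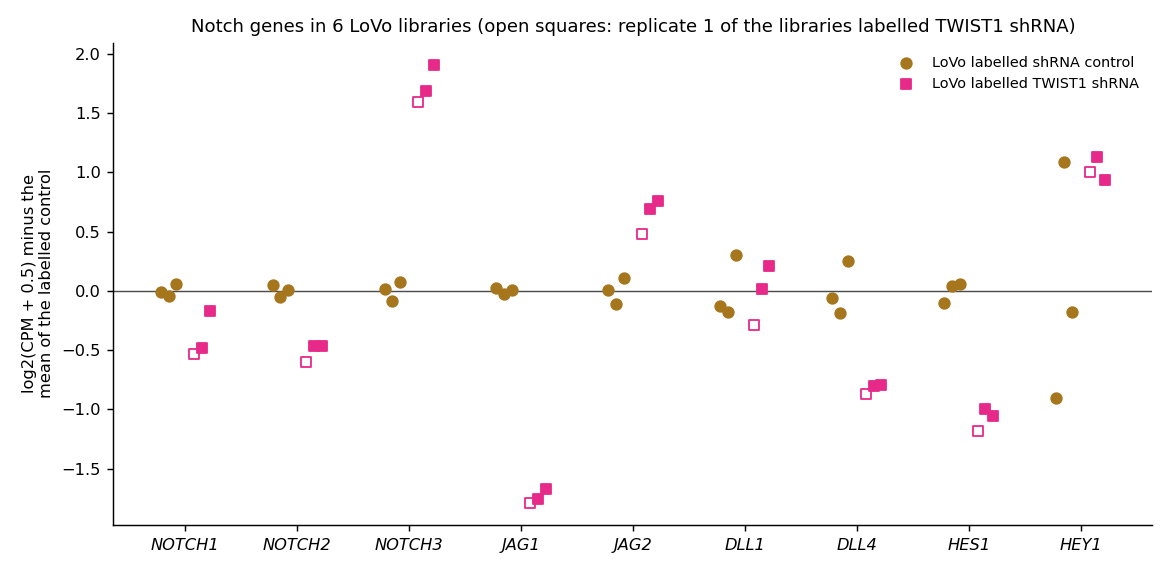
Log2(CPM + 0.5) of the 9 tested members in each LoVo library, minus the mean of the libraries labelled shRNA control. Circles are the 3 libraries labelled control and squares the 3 labelled TWIST1 shRNA, with replicate 1 open. Squares lie above the circles for NOTCH3 and JAG2 and below them for NOTCH1, NOTCH2, JAG1, DLL4 and HES1, and overlap them for DLL1 and HEY1.

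Several features of the LoVo libraries moved with the labels. The 10 colon epithelium markers summed to 8971 to 9300 CPM in the libraries labelled control and to 4778 to 5412 in those labelled TWIST1 shRNA. The 6 mesenchymal markers summed to 181.3 to 185.8 and to 48.1 to 55.3, and the 6 fibroblast markers to 5.34 to 7.35 and to 56.4 to 83.8. These 2 sums rest on few genes, not all of which moved with the sum. In the control libraries 3 mesenchymal and 2 fibroblast markers had a mean above 1 CPM, and in the others 4 and 1. ZEB2, TWIST1, COL1A2 and DCN were at 0 counts in the control libraries, and CDH2, DCN and LUM in the others. Mitochondrial genes took 3.49% to 3.96% of counts in the control libraries and 10.9%, 6.24% and 5.47% in the others, of which replicate 1 stood apart. It differed from replicates 2 and 3 by a chi-square per gene of 20.6 and 31.5, and these differed from each other by 4.44. Their part in the Notch results was not tested. Without that replicate the called members kept their calls, with log2 fold changes of 1.86 for NOTCH3, 0.77 for JAG2, -1.67 for JAG1, -0.86 for DLL4 and -0.99 for HES1.

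Of the 94 other pathway genes, 73 were tested in LoVo, with 18 called higher and 23 lower, beside the 26.6% higher and 26.1% lower among all genes, and a median log2 fold change of -0.06. Of the 11 genes of the nuclear complex 5 were lower, among them the coactivators MAML1 (-0.76), MAML2 (-1.35) and KAT2B (-0.78) and the demethylase KDM5A (-1.08). Among the other targets 5 of 17 were higher and 5 lower. NRARP, a feedback inhibitor that Notch induces, was at -1.46, MYC at -0.86 and HEY2 at -2.86, whereas HES4 was at 0.91, HEYL at 0.79 and CCND1 at 1.497. Of the glycosyltransferases of the pathway, LFNG (1.09), MFNG (2.11) and POGLUT1 (1.27) were higher. The absorptive list had 4 tested genes, 3 lower and 1 higher in the libraries labelled TWIST1 shRNA (median log2 fold change -3.32), so a fall was not particular to secretory genes. Of the 6 tested genes of the secretory lineages, which lie downstream of ATOH1 in the crypt, 3 were lower and 1 higher there (median -1.46). MUC2, the goblet cell mucin, was at -2.86, AGR2 went from 63.6 to 2.13 CPM, and TFF3 went from 69 to 107 counts per library to 0, a fall of at least 83.2-fold at the floor, whereas FCGBP was higher (1.12). MFAP2, a microfibril protein that can bind Jagged ligands, went from 0.0831 to 40.6 CPM and the ubiquitin ligase relative DTX3 from 5.79 to 0.175 CPM.

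Against LoVo libraries labelled control, 6 of the 9 tested members were lower in WT MDST8 and HEY1 was higher. In this comparison 64.6% of 14185 genes were called, 34% higher and 30.6% lower in MDST8, and the line and whatever else differed between the 2 sets of libraries cannot be told apart. NOTCH3 differed most, at 0.105 to 0.301 CPM in WT MDST8 against 44.5 to 50 in LoVo (log2 -7.60, SE 0.187, adjusted p = 4.71e-28, edgeR quasi-likelihood test). The 2 groups did not overlap, and 45.5% of all genes had all 3 MDST8 libraries higher and 41.8% lower. JAG2 was at -7.20 (adjusted p = 9.4e-30), DLL4 at -3.14 (adjusted p = 7.2e-12), HES1 at -3.07 (adjusted p = 7.65e-23), JAG1 at -2.70 (adjusted p = 9.75e-33) and NOTCH1 at -0.71 (adjusted p = 1.03e-10). HEY1 was higher in MDST8 by 1.95 (adjusted p = 2.69e-06), a value that became 3.40 without control replicate B of LoVo. DLL1 was at 0.48 (adjusted p = 0.00054), under the fold threshold, and NOTCH2 at -0.10 (adjusted p = 0.0628). The NOTCH1 call was lost with limma on log2(count + 1) (-0.52) and log2(RPM + 1) (-0.55), whereas DLL1 was called higher in MDST8 with both (0.69 and 0.61) and without LoVo control replicate C (0.64). Among the other targets 11 of 15 were lower in MDST8 and 2 higher. NRARP was at 0.321 CPM in WT MDST8 and 112.7 in LoVo, and MUC2 held 0 counts in WT MDST8 and 54.2 CPM in LoVo, at least 1070-fold lower at the floor. DNER, a non-canonical ligand of neural cells, was at 262.7 CPM in WT MDST8 and 0.334 in LoVo.

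The levels were also set in order over all 8 groups. For DLL4 the libraries labelled control in LoVo (5.75 ± 1.01 CPM, SD, n = 3) and clone 3.6 (4.69 ± 1.15) overlapped, followed by the LoVo libraries labelled TWIST1 shRNA (3.00 ± 0.102) and clone 3.5 (2.65 ± 0.539), which overlapped as well. Clones 1.1, 3.2 and 2.2 came next, and WT was lowest at 0.643 ± 0.114 CPM. For JAG1 the order was LoVo labelled control (388.1 CPM), clone 2.2 (122.2), LoVo labelled TWIST1 shRNA (115.9), clone 1.1 (101.6), clone 3.2 (94.4), clone 3.6 (83.5), clone 3.5 (64.5) and WT (59.8), and only clone 2.2 and the LoVo libraries labelled TWIST1 shRNA overlapped as neighbours. For HES1 the order was LoVo labelled control (95.3 CPM), LoVo labelled TWIST1 shRNA (44.8), clone 3.6 (29.2) and then clones 3.2 (16.9), 2.2 (16.4), 1.1 (15.01) and 3.5 (11.8) and WT (11.4), where each of the last 5 overlapped the next. DLL1 alone of the ligands was highest in a KO clone, 3.6, at 30.4 CPM, and lowest in LoVo, at 10.4 and 10.6 CPM.

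The difference between the LoVo effect and the mean effect of the 5 clones was tested in a fit of all 24 libraries. It was significant for 7 of 9 members, where 73.6% of all genes differed, 37.2% with a higher and 36.4% with a lower effect in LoVo. The LoVo effect was lower for DLL4 (-2.49, adjusted p = 2.23e-07), JAG1 (-2.35, adjusted p = 2.66e-27), HES1 (-1.67, adjusted p = 1.74e-12), NOTCH2 (-0.62, adjusted p = 4.11e-10), DLL1 (-0.61, adjusted p = 0.000831) and NOTCH1 (-0.49, adjusted p = 2.35e-05), all on the log2 scale by edgeR's quasi-likelihood test. It was higher for HEY1 (1.32, adjusted p = 0.00671), a value that became 2.77 without LoVo control replicate B. For NOTCH3 (0.86, adjusted p = 0.126) and JAG2 (0.54, adjusted p = 0.147) the difference was not significant, on the few counts these genes have in MDST8. For these 2 the difference became significant with limma on log2(RPM + 1) (1.55 and 0.70), for NOTCH3 also without clone 3.6 replicate B (1.08) and for JAG2 without WT replicate B (0.81).

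These directions follow the LoVo labels, by which JAG1, DLL4 and HES1 were lower in the libraries labelled TWIST1 shRNA and higher in the clones where called. By TWIST1 mRNA those LoVo libraries are the ones with more TWIST1. The LoVo effect was therefore also turned, as labelled control minus labelled TWIST1 shRNA, in an alternative added after the data were seen. Turned in this way, the LoVo effect was 1.73 for JAG1, 0.92 for DLL4 and 1.07 for HES1, the same sign as the calls in the clones. Its difference from the mean effect of the clones was 1.13 for JAG1 (adjusted p = 1.14e-18, edgeR quasi-likelihood test), 0.51 for HES1 (adjusted p = 0.00222) and -0.62 for DLL4 (adjusted p = 0.136). It was significant for 7 of 9 members again, where 74% of all genes differed, with NOTCH3 (-2.63, adjusted p = 2.38e-07) and JAG2 (-0.755, adjusted p = 0.0269) in place of DLL4 and HEY1 (-0.70, adjusted p = 0.146). The authors assessed the LoVo knockdown by qRT-PCR and by western blot, measurements that are not part of the data used here. Which direction of the LoVo comparison matches that of the knockout was not settled by the RNA-seq counts.

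The last readout asked where TWIST1 peaks were listed in wild-type cells of each line, from 1 peak list per line with no replicate. TWIST1 mRNA was at 0 counts in the LoVo libraries labelled shRNA control and at a mean of 4.92 CPM in those labelled TWIST1 shRNA. Whether the LoVo peaks mark bound TWIST1 was not tested. The lists hold 338877 peaks in MDST8 and 333621 in LoVo at an unadjusted p below 0.05. A peak no farther than 3000 bp from the 5′ end existed for 9 of 10 members in MDST8, where 63.1% of all genes had one, and for 7 of 10 in LoVo, where 55.7% did. JAG2 had none in MDST8, and NOTCH1, DLL1 and ATOH1 had none in LoVo. No member had a peak there at a q-value of 0.05 or less, as did 0.437% of genes in MDST8 and 0.361% in LoVo. Of the genes tested for expression 76.5% and 58.2% had such a peak in the 2 lines.

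Of 15 such peaks in MDST8, the one with the smallest p lay in NOTCH1, with its summit 1042 bp downstream of the 5′ end (fold enrichment 3.23, a p-value of 4.36e-05 and a q-value of 0.274 from MACS2). NOTCH3 followed with a p-value of 6.23e-05 and a q-value of 0.279. At JAG1 a peak at chr20:10673604-10674339 covered the promoter printed above, with its summit 255 bp upstream (p-value 0.00228, q-value 0.82), and a second JAG1 peak was the only 1 of the 15 that overlapped a LoVo peak. At ATOH1 the peak chr4:93828416-93828824 covered the printed promoter with its E-box, with its summit 68 bp upstream (p-value 0.00141, q-value 0.82), at a gene with no detectable mRNA. At HES1 both MDST8 peaks had p above 0.01 and lay outside the printed promoter, and the DLL4 peak lay 2856 bp downstream. Of 8 peaks in LoVo the smallest p was at JAG2, 1710 bp downstream (fold enrichment 3.42, p-value 3.38e-05, q-value 0.221), then at HEY1 (p-value 6.19e-05, q-value 0.34). HES1 in LoVo had a peak 2880 bp upstream (p-value 0.000747, q-value 0.751).

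**Figure D4:**
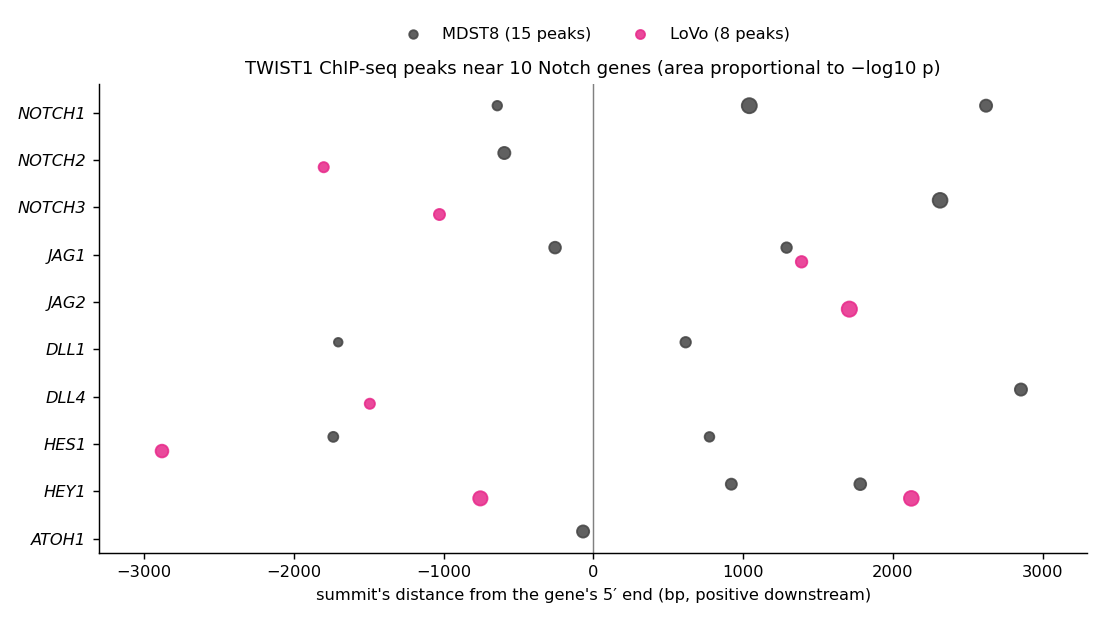
TWIST1 ChIP-seq peaks within 3000 bp of each member, placed by the distance in bp from the 5′ end of the gene to the summit, positive downstream. The area of a point is proportional to its -log10 p-value. MDST8 has 15 such peaks and LoVo 8, and none reaches a q-value of 0.05.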

How the data were processed

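RNA-seq measured 24 libraries and ChIP-seq gave 1 TWIST1 peak list per cell line. The authors trimmed reads with Trim Galore 0.6.6, aligned them to hg38 with HISAT2 2.1.0, and deposited a raw count of fragments per gene from featureCounts 2.0.0 on GENCODE genes, without normalization and without strand, although the libraries were directional. The deposited tables also give another value, the exon length in bp. For ChIP-seq the authors used Bowtie2 2.4.5 and MACS2 2.2.7.1 and deposited, per peak, the −log10 p-value and −log10 q-value, the fold enrichment (a ratio to local background), a whole-number score and the summit offset in bp, keeping peaks at p below 0.05. Use of the input as control is not given in the sources used here. The peaks were read as hg38, since none ran past a chromosome end.

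Groups were taken from the labels. Counts were compared with edgeR 4.0.16 (R 4.3.3), by its quasi-likelihood test with TMM factors: the 18 MDST8 libraries in 1 fit, the 6 LoVo libraries in another, and all 24 for the comparisons across lines. Genes entered at a geometric mean RPM of at least 1, taken with an offset of 1 (13706, 14270 and 14185 genes). Calls needed a Benjamini-Hochberg adjusted p below 0.05 and, except in the F test among clones and the difference between lines, an absolute log2 fold change above 0.58. CPM and FPKM used 1 TMM scale over the 24 libraries. The members and the lists of other pathway genes were chosen with earlier results of these data known. From the lists, the rule named up to 4 called genes per comparison with the largest change and groups that do not overlap. Other list genes in the text were named after their values were seen. Likeness named up to 3 of the nearest protein-coding genes. Some genes that these rules select are not reported here. Likeness is Pearson's r of log2(CPM + 0.5). An exact permutation test of 3 libraries against 3 cannot go below 0.10, so none is given. Scripts were tested on simulated data.

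Alternatives were DESeq2 1.42.0, limma 3.58.1 (voom, log2(count + 1), log2(RPM + 1)), RLE and upper-quartile factors, no filter, filterByExpr, only the groups compared, a replicate block, each library left out in turn, and other peak windows and thresholds. An alternative with the LoVo direction turned was added after seeing the data.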

Additional observations from a re-analysis of the deposited data

Results flagged for a closer look

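Differences between groups in the effect of the same contrast were found for all 7 tested members among the 5 MDST8 clones, as for 81% of all tested genes. The F test of edgeR gave adjusted p of 6.21e-18 for JAG1, 8.45e-12 for DLL1, 7.91e-11 for HES1, 2.66e-10 for HEY1, 1.86e-09 for NOTCH2, 3.36e-09 for NOTCH1 and 8.35e-09 for DLL4. Among the 3 clones of guide number 3, the library values of JAG1, DLL1, DLL4 and NOTCH1 did not overlap between any of the clones. NOTCH2 overlapped between clones 3.2 and 3.5 (190.4 to 224.6 and 185.3 to 205 CPM), as did HES1. HEY1 overlapped between clones 3.2 and 3.6, and was at 1.204 to 2.1 CPM in clone 3.5 and 3.74 to 5.03 in clone 3.2. The share of all genes that separate these clones in this way was not computed.

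Between the lines, the LoVo effect minus the mean effect of the clones was -2.494 for DLL4, -2.353 for JAG1, -1.674 for HES1, -0.62 for NOTCH2, -0.611 for DLL1, -0.486 for NOTCH1 and 1.316 for HEY1 on the log2 scale. Each passed an adjusted p of 0.05 by edgeR's quasi-likelihood test, and 73.6% of all genes did so too. The direction of the LoVo effect follows labels that TWIST1 mRNA ran against, and with it turned the values for JAG1 and HES1 were 1.13 and 0.51 and DLL4 no longer passed (-0.62). The test for a single outlying library needs at least 4 libraries and was not applied to groups of 3, in which each library was left out in turn.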

How the results depend on the processing

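Of 177 recomputed counts of members, 172 stayed within 1.5 times the reported count, and the 5 others were counts of members with a promoter peak. These fell with the share of all genes that had such a peak, 63.1% in MDST8 and 55.7% in LoVo at the main setting. In MDST8 the count went from 9 to 2 at p of at most 0.001 (17.9% of all genes). At q of at most 0.05 it was 0 (0.437%). In LoVo it went from 7 to 4 with a window of 1000 bp (28.4%) and to 3 at p of at most 0.001 (16%). At q of at most 0.05 it was 0 there too (0.361%). Of 1115 recomputed log2 fold changes, 1053 kept direction and side of the threshold, 17 lost and 19 gained the call, and 26 changed sign. With the LoVo direction turned to follow TWIST1 mRNA, chosen after seeing the data, the difference between the LoVo effect and that of the clones changed sign for NOTCH1 (0.286), NOTCH2 (0.405), NOTCH3 (-2.63), JAG1 (1.134), JAG2 (-0.755), HES1 (0.507) and HEY1 (-0.696). The other changes of sign were of values near 0, none of them a call. NOTCH2 in clone 3.6 was 0.002 with DESeq2, 0.124 with limma on log2(count + 1), 0.001 with RLE factors, 0.039 with upper-quartile factors and 0.003 with only the groups compared, and ran from -0.023 to 0.025 with a library left out. HES1 in clone 3.5 was -0.045 with limma on log2(count + 1) and -0.025 on log2(RPM + 1), and from -0.178 to 0.19 with a library left out. NOTCH1 in clone 1.1 ran from -0.022 to 0.124 with a library left out. DLL1 in LoVo was 0.062 with limma on log2(RPM + 1) and 0.081 with upper-quartile factors, and from -0.125 to 0.15 with a library left out. NOTCH2 between the lines was 0.088 with limma on log2(count + 1) and 0.057 on log2(RPM + 1). The cause was not tested. The DLL4 calls in clones 1.1, 2.2 and 3.2 were lost with limma on log2(RPM + 1), those in clones 2.2 and 3.2 also with voom, and that in clone 2.2 also with limma on log2(count + 1). With only the groups compared, DLL4 fell under the filter in these 3 clones and gave no value. HEY1 in LoVo was called with voom (1.68), limma on log2(RPM + 1) (0.77), upper-quartile factors (1.13) and no filter (0.99). Called genes between the lines numbered 9158, and 13894 with no filter. The share of called genes that were higher went from 64.1% to 74.3% in clone 3.2 and from 56.7% to 71% in clone 3.6 with limma on log2(count + 1).

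Libraries share replicate letters across groups, but same-lettered MDST8 libraries did not deviate together (r from -0.146 to 0.12 over 45 pairs, 3 of them above 0.1). A fit with the replicate block gave the same counts of called members, 3, 3, 3, 2 and 3 in clones 1.1, 2.2, 3.2, 3.5 and 3.6 and 7 among clones.

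Depth limits NOTCH3, JAG2 and ATOH1 in MDST8, DLL4 in WT and HEY1 in LoVo, each with few counts. A clone is 1 isolate, and the ChIP-seq lists have no replicate.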

Other observations

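NRARP, which encodes a feedback inhibitor that Notch induces, was under the filter in MDST8 and was looked at after the values of HES1 were known. It held 4 to 10 counts per WT library (0.321 ± 0.159 CPM, SD, n = 3) and 34 to 42 counts in clone 3.6 (1.81 ± 0.271 CPM), the clone in which HES1, DLL1 and DLL4 were highest among the MDST8 groups. The other 4 clones held 1 to 5 counts per library. The difference was not tested. In LoVo, NRARP was at 112.7 ± 7.38 CPM in the libraries labelled shRNA control and at 40.6 ± 5.86 CPM in those labelled TWIST1 shRNA.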
